A study of Homo sapiens with 10 samples.

Results

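Lysosomal enzymes and membrane proteins were examined as 1 gene set in drug-survived and tumor sphere (TS) cells. The set held 44 genes chosen by symbol from the normalized FPKM values (fragments mapped to a gene scaled by its length and the library's depth, so that levels of different genes can be compared), out of 46427 genes in the table, and all 44 were measured. It comprised 12 cathepsins and other lysosomal peptidases, 11 glycosidases, 4 sulfatases, 5 lipid and thioester hydrolases and saposin precursors, 5 membrane proteins, 4 genes of the proton pump, progranulin and 2 transcription factors. GLB1, which encodes the beta-galactosidase detected in the staining of senescent cells, was among them.

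The lysosome is the acidic compartment in which cells break down proteins, glycans, lipids and nucleic acids that arrive by endocytosis or autophagy. Its hydrolases are made as precursors, are tagged for delivery in the Golgi and work at the low pH kept by the V-ATPase, a proton pump, while heavily glycosylated membrane proteins such as LAMP1 and LAMP2 line the compartment. The MiT/TFE transcription factors, TFEB and TFE3 among them, switch on many lysosomal genes through a short E-box sequence in their promoters, and an enlarged lysosomal compartment is a known feature of senescent cells.

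RNA sequencing of 10 libraries from 2 established human lung cancer cell lines, H460 and A549, was used. Of H460 cells there were 3 parental libraries from 2-dimensional (2D) culture, 1 of cisplatin-resistant (CR), 2 of paclitaxel-resistant (PR), 1 of doxorubicin-resistant (DR) and 1 of TS cells, and of A549 cells 1 library from 2D culture and 1 of TS cells. The CR, PR and DR cells were H460 cells that survived 3 days of 4 uM cisplatin, 5 nM paclitaxel or 0.5 uM doxorubicin and 3 days in fresh medium and that attached after re-plating, with RNA taken on day 8, so they are survivors of 1 exposure and not established resistant lines. The TS cells, which the labels name CTC after the culture method for circulating tumor cells, were carried without drug as spheres in suspension through 3 subcultures in serum-free medium with growth factors, with RNA taken on day 29. The labels do not tie the replicates to separate cultures. A general statement in the methods that the data stand for repeated separate experiments names no library. P-values therefore measure only the spread between these libraries, which may be technical between replicates of a group. Where CR, PR and DR were tested as 1 group of 4 libraries, the spread in that group also includes differences between the 3 drugs. Reads assigned to genes ranged from 59499787 to 89541774 per library (median 71656787). Both lines expressed the epithelial keratins KRT8 and KRT18, at 190.4 to 3866 FPKM. KRT19 was at 138 to 738 FPKM in the H460 libraries, 3.57 in A549 2D and 68.3 in A549 TS. The distal lung markers NKX2-1, SFTPB and SFTPC were at or below 0.139 FPKM in all 10 libraries. NAPSA was at or below 0.427 (0 to 0.0556 in parental and 0.16 to 0.319 in drug-survived H460 cells, called higher by edgeR). CDH1 and EPCAM were at or below 0.114 FPKM in H460 cells.

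In drug-survived H460 cells (CR, PR and DR, 4 libraries) against parental cells (3 libraries), 27 of the 44 lysosomal genes rose and none fell by edgeR's quasi-likelihood test with Benjamini-Hochberg adjustment over all genes tested (adjusted p under 0.05). Over all 18398 genes tested, 18.5% rose and 15.3% fell. The median log2 fold change of the 44 genes was 0.89, against 0.06 for all genes, and 41 of the 44 had a positive sign. Apart from CTSS, which was near 0 in parental cells, the largest increases were in IDUA, ARSA, CTSF, GRN, PSAP and CTSD, whereas the log2 changes of CTSC, PPT1, TFE3 and CTSL, from -0.30 to 0.13, did not pass the test. Because the libraries are from bulk RNA, a change in the share of cells of a type and a change in RNA per cell cannot be told apart.

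**Figure D1:**
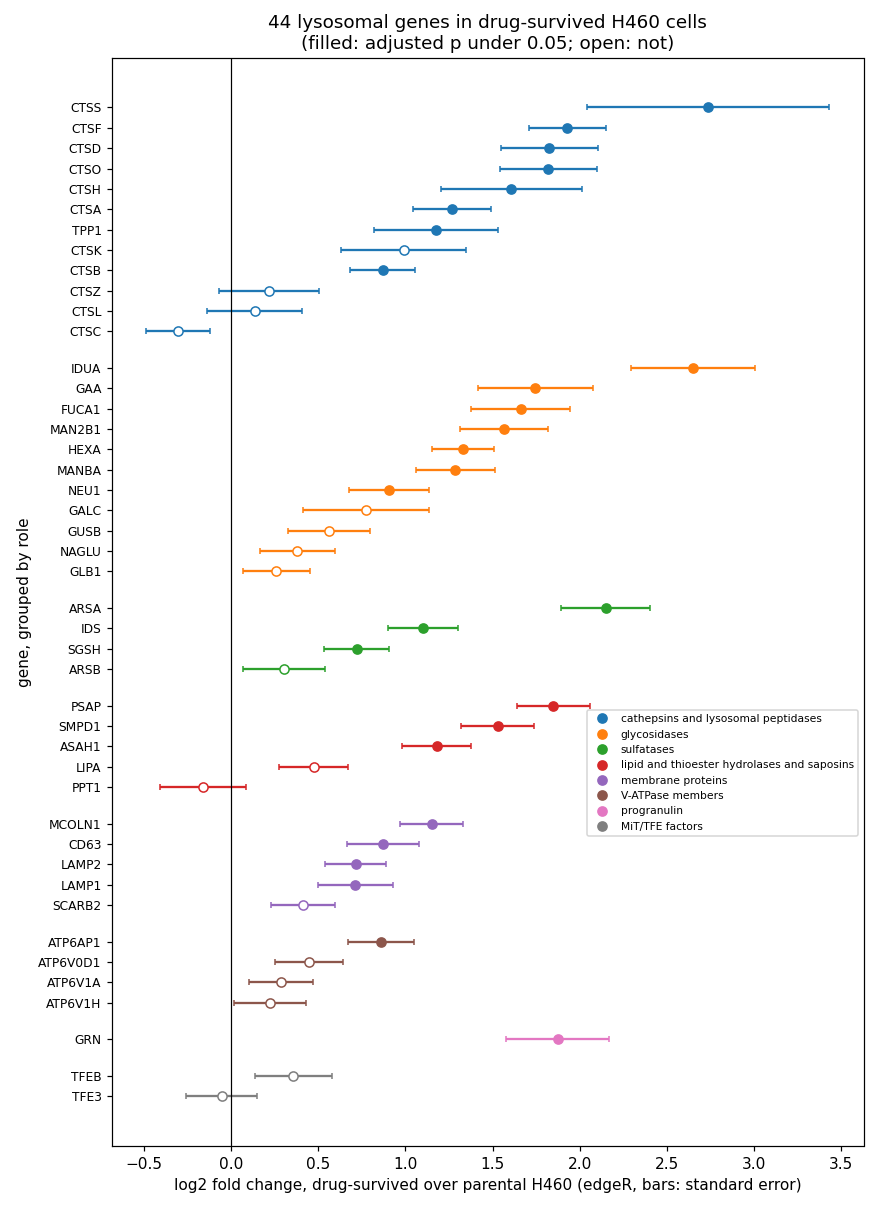
The plot gives, for each of the 44 genes grouped by role, the log2 fold change of drug-survived over parental H460 cells (x axis, edgeR, bars are the standard error). Filled points are the 27 genes with an adjusted p under 0.05, all of them to the right of 0, and the MiT/TFE factors and most V-ATPase members are open points close to 0.

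Among the peptidases, 8 of 12 rose, with a median log2 fold change of 1.22 for all 12 and adjusted p-values from 0.000305 to 0.028 for the 8 (edgeR). CTSD, the major aspartic cathepsin, was at 188, 110.3 and 166 FPKM in the parental libraries and at 605 in CR, 463 and 599.7 in PR and 714 in DR, a log2 change of 1.83 ± 0.28 (SE). CTSA, the serine carboxypeptidase that also protects beta-galactosidase and neuraminidase, was at 81.2, 47.6 and 55.5 in parental cells and 154 in CR, 154 and 179 in PR and 156 in DR (log2 change 1.27 ± 0.22). CTSB, an abundant cysteine cathepsin, had 32.3, 39.1 and 41.5 in parental cells and 67.7 in CR, 66.6 and 85.1 in PR and 71.8 in DR (log2 change 0.87 ± 0.19). In all 3 genes each drug-survived library was above each parental library, and PR replicate 2 had the highest CTSA and CTSB. CTSF, a cysteine cathepsin of low level, went from 2.88, 4.06 and 4.41 FPKM to 14 in CR, 15.4 and 20.6 in PR and 13.2 in DR (log2 change 1.93 ± 0.22). CTSO, another cysteine cathepsin, went from 0.596, 1.25 and 1.15 to 3.86 in CR, 4.06 and 4.26 in PR and 3.11 in DR (log2 change 1.82 ± 0.28). Again the groups did not overlap, and the 4 survivor libraries of CTSO lay close together. TPP1, the tripeptidyl peptidase lost in a form of neuronal ceroid lipofuscinosis, was at 4.09, 1.45 and 2.21 in parental and 3.89 in CR, 8.21 and 8.32 in PR and 5.43 in DR (log2 change 1.18 ± 0.36). For TPP1 the CR library lay below parental replicate 1, so the groups overlapped, and the call was lost when parental replicate 2 or 3 or either PR library was left out, with the adjusted p reaching 0.0928.

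CTSH and CTSS, the latter a cathepsin of antigen-presenting cells, were near the detection limit in parental H460 cells. CTSH was at 0.155, 0.141 and 0.109 FPKM there and at 0.285 in CR, 0.392 and 0.682 in PR and 0.487 in DR (log2 change 1.61 ± 0.41). CTSS was at 0.194, 0.154 and 0.116 in parental cells and 0.169 in CR, 1.52 and 2.35 in PR and 0.648 in DR (log2 change 2.74 ± 0.70). The CTSS value of the CR library lay inside the parental range, and the higher values were those of PR and DR. CTSS lost its call without parental replicate 2 or 3 and by limma on log2(FPKM + 1). The most abundant cathepsin, CTSL, was at 673, 921 and 676 FPKM in parental cells and 1158 in CR, 608 and 778 in PR and 964 in DR, with overlapping groups and a log2 change of 0.13 ± 0.27 (edgeR adjusted p = 0.729). CTSC, the dipeptidyl peptidase that activates granule serine proteases, was at 313, 394 and 349 in parental cells and 290.0 in CR, 306 and 324 in PR and 249.9 in DR (log2 change -0.30 ± 0.18, edgeR adjusted p = 0.22). The survivor CTSC values lay low in or under the parental range. The other 2 peptidases, CTSK and CTSZ, did not pass the test, at log2 changes of 0.99 ± 0.36 and 0.22 ± 0.29.

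Of the 11 glycosidases, 7 rose (median log2 fold change of the 11, 1.29, and edgeR adjusted p from 0.000582 to 0.0131 for the 7). IDUA, the iduronidase that degrades heparan and dermatan sulfate, was at 0.735, 1.01 and 1.71 FPKM in parental cells and 9.53 in CR, 7.47 and 6.09 in PR and 8.41 in DR, a log2 change of 2.65 ± 0.35 (SE). GAA, which degrades glycogen, was at 12.6, 12.4 and 22.3 in parental cells and 63.3 in CR, 40.6 and 47.6 in PR and 71.1 in DR (log2 change 1.75 ± 0.33). FUCA1, the tissue alpha-fucosidase, was at 3.24, 6.45 and 5.97 and 19.4 in CR, 13.2 and 17.3 in PR and 22 in DR (log2 change 1.66 ± 0.28). In each of these 3 genes both PR libraries were below the CR and DR libraries, and all 4 were above the parental ones. The alpha-mannosidase MAN2B1 had 8.12, 9.98 and 12 FPKM in parental cells and 34.2 in CR, 24 and 30.8 in PR and 39.5 in DR (log2 change 1.57 ± 0.25). The beta-mannosidase MANBA had 2.68, 2.6 and 2.23 and then 8.17 in CR, 5.71 and 5.57 in PR and 7.17 in DR (log2 change 1.29 ± 0.23). Both mannosidases showed the same order of CR and DR above PR. HEXA, the alpha subunit of the hexosaminidase that degrades GM2 ganglioside, had 3.17, 3.06 and 2.65 in parental cells and 7.52 in CR, 6.79 and 9.05 in PR and 8.83 in DR (log2 change 1.33 ± 0.18). NEU1, the lysosomal sialidase, had 8.57, 5.29 and 5.05 in parental cells and 11.4 in CR, 11.3 and 16.9 in PR and 11.9 in DR (log2 change 0.91 ± 0.23). HEXA was tight within both groups, whereas PR replicate 2 stood above the other survivors in NEU1, whose adjusted p was 0.0632 without parental replicate 2.

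GLB1, the gene behind senescence-associated beta-galactosidase staining, did not pass the test. It was at 19.9, 20.3 and 24.1 FPKM in the parental libraries and 29.1 in CR, 25.3 and 25.4 in PR and 30.6 in DR. Each survivor library was above each parental one in FPKM, but the log2 change fitted to the read counts was 0.26 ± 0.19 (edgeR adjusted p = 0.318, and 0.0992 to 0.59 over 14 alternatives), and the groups overlapped in TMM-scaled read counts. The other 3 glycosidases were not called either: GALC had a log2 change of 0.77 ± 0.36, GUSB of 0.56 ± 0.23 and NAGLU of 0.38 ± 0.21. GALC, the galactocerebrosidase, was at 71.6, 80.8 and 74.9 in parental cells and 246 in CR, 103 and 101 in PR and 98.7 in DR, so that the CR library alone was more than 2-fold above the parental mean.

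**Figure D2:**
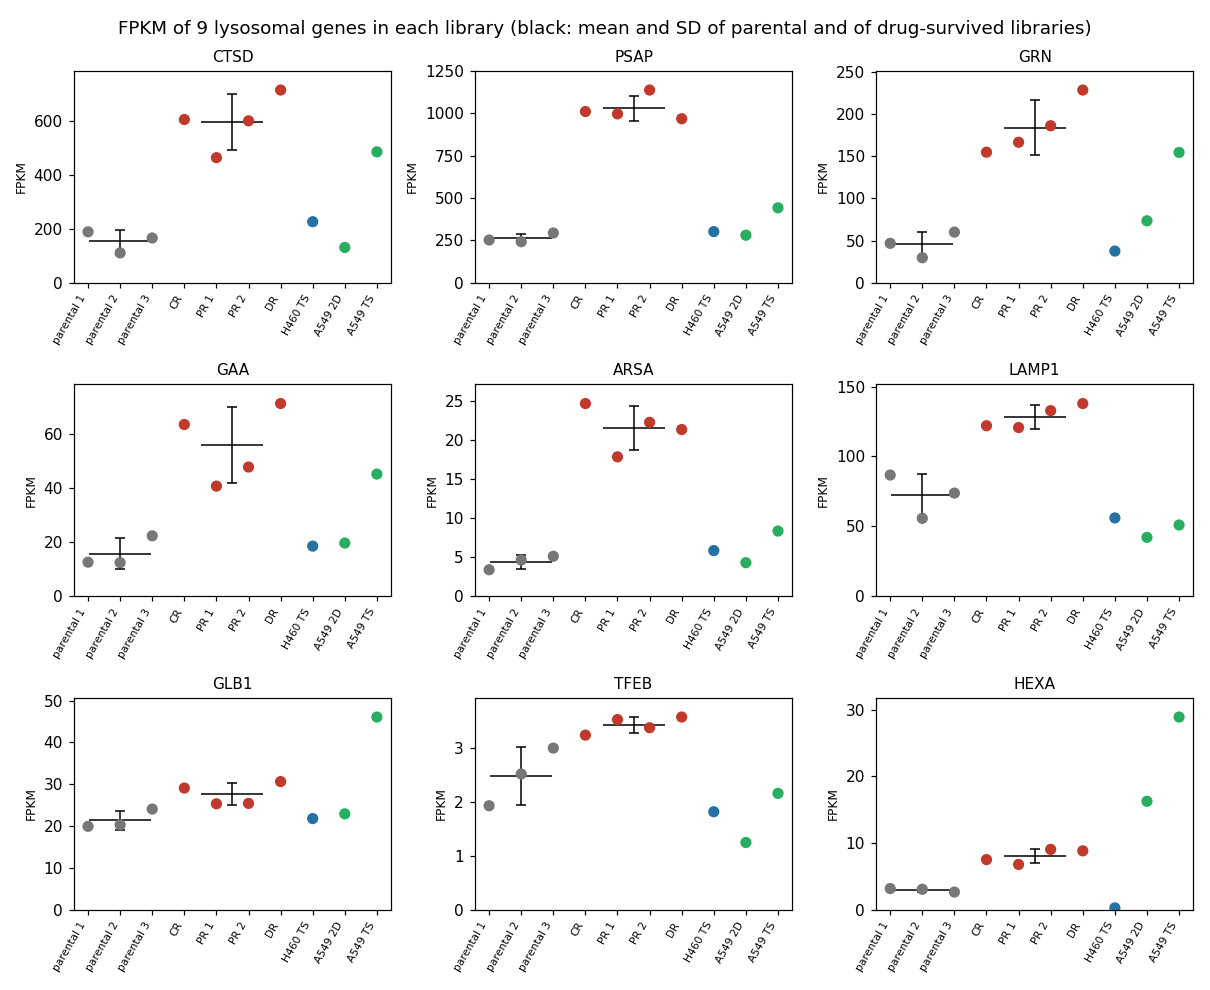
Each panel plots the FPKM of 1 gene (y axis, linear, from 0) in the 10 libraries, with the mean and SD of the 3 parental and the 4 drug-survived libraries in black. CTSD, PSAP, GRN, GAA, ARSA and LAMP1 have all 4 drug-survived points above the parental points, GLB1 and TFEB do so by a narrow margin, and HEXA is lowest in the H460 TS library and highest in A549 TS.

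Of the 4 sulfatases, 3 rose. ARSA, the arylsulfatase lost in metachromatic leukodystrophy, was at 3.39, 4.63 and 5.11 FPKM in parental cells and 24.7 in CR, 17.9 and 22.3 in PR and 21.4 in DR (log2 change 2.15 ± 0.25, edgeR adjusted p = 0.000363). IDS, the iduronate sulfatase, was at 14.4, 11.6 and 14.2 in parental cells and 27 in CR, 36.4 and 32.2 in PR and 28.2 in DR (log2 change 1.103 ± 0.20, adjusted p = 0.00268). SGSH, the sulfamidase of heparan sulfate breakdown, was at 7.45, 7.32 and 10.0 and 13.4 in CR, 15.8 and 15.6 in PR and 13.5 in DR (log2 change 0.72 ± 0.19, adjusted p = 0.0146). None of the 3 overlapped between the groups, and SGSH was not called without parental replicate 1 or 2. ARSB did not pass (log2 change 0.30 ± 0.24).

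In the lipid group, PSAP, the precursor of the saposins that present sphingolipids to their hydrolases, had the highest mean level of the 44 genes in the survivors. It was at 252, 242 and 294 FPKM in parental cells and 1011 in CR, 997 and 1138 in PR and 968 in DR, a log2 change of 1.85 ± 0.21 (edgeR adjusted p = 0.000291). Its 4 survivor values lay close together and far above the parental ones. SMPD1, the acid sphingomyelinase, was at 3.99, 4.07 and 4.96 and 12.7 in CR, 11.1 and 14.6 in PR and 16.4 in DR (log2 change 1.53 ± 0.21, adjusted p = 0.000681). ASAH1, the acid ceramidase, was at 30.3, 27.1 and 22 in parental cells and 72.2 in CR, 63.6 and 57.8 in PR and 61.2 in DR (log2 change 1.18 ± 0.20, adjusted p = 0.00179). Both enzymes were higher in each survivor library than in each parental one. LIPA, the acid lipase that frees cholesterol, and PPT1, a palmitoyl thioesterase, were not called, at 0.47 ± 0.20 and -0.16 ± 0.24.

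Of the 5 membrane proteins 4 rose, with a median log2 change of 0.72 for the 5. LAMP1 was at 86.7, 55.7 and 73.8 FPKM in parental cells and 122 in CR, 121 and 133 in PR and 138 in DR (log2 change 0.71 ± 0.21, edgeR adjusted p = 0.0274). LAMP2, which also serves chaperone-mediated autophagy, was at 29.99, 27.8 and 23.2 and 41.1 in CR, 47.2 and 41.8 in PR and 38.8 in DR (log2 change 0.72 ± 0.17, adjusted p = 0.0113). CD63, a tetraspanin of late endosomes and exosomes, was at 214, 297 and 219.8 and 465 in CR, 397 and 518 in PR and 535 in DR (log2 change 0.87 ± 0.20, adjusted p = 0.00939). The groups did not overlap in any of the 3, but LAMP1 lost its call in 5 of 14 alternatives, with no filter on low counts and without parental replicate 2, CR, DR or PR replicate 2, where the adjusted p reached 0.0951. MCOLN1, the lysosomal calcium channel, was at 4.34, 3.45 and 3.76 in parental cells and 8.76 in CR, 8.82 and 10.8 in PR and 8.88 in DR (log2 change 1.15 ± 0.18, adjusted p = 0.00129). SCARB2, the receptor that carries glucocerebrosidase, did not pass (log2 change 0.41 ± 0.18).

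GRN, which encodes progranulin, a secreted and lysosomal glycoprotein needed for lysosomal function, was at 46.7, 29.6 and 60.1 FPKM in parental cells and 155 in CR, 167 and 186 in PR and 229 in DR (log2 change 1.87 ± 0.29, edgeR adjusted p = 0.00129). Every survivor library had more than 2 times the highest parental value. Among 4 genes of the V-ATPase only the accessory subunit gene ATP6AP1 was called, at 84.1, 74.3 and 86.4 and 152 in CR, 146 and 172 in PR and 174 in DR (log2 change 0.86 ± 0.19, adjusted p = 0.00665). ATP6V0D1, ATP6V1A and ATP6V1H had log2 changes of 0.45 ± 0.20, 0.28 ± 0.18 and 0.22 ± 0.21 and were not called. Neither MiT/TFE factor passed the test. TFEB was at 1.93, 2.51 and 2.99 FPKM in parental cells and 3.23 in CR, 3.52 and 3.37 in PR and 3.57 in DR (log2 change 0.36 ± 0.22, adjusted p = 0.232). TFE3 was at 34.3, 29 and 37.4 and 27.6 in CR, 37 and 47 in PR and 30.4 in DR (log2 change -0.05 ± 0.20, adjusted p = 0.855). The survivor TFEB values were all just above the highest parental value in FPKM, and the TFE3 groups overlapped.

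Read by library rather than by fit, 35 of the 44 genes had every drug-survived library above every parental library in FPKM and none had the reverse, where 25.8% and 13.6% of all genes tested did so. In TMM-scaled read counts the numbers were 28 and 1 (21.8% and 19.3% of all genes tested), the 1 being CTSC, which was lower. By their prefix, library names take 2 forms, Hjang-2018 and Hjang2018. PR replicate 1, the only drug-survived library of the form Hjang2018, alone has the suffix exp in its name. As differences of log2(FPKM + 1), another scale than the fitted changes, the median of the 44 genes was 0.89 within the 4 libraries of the form Hjang-2018 (3 drug-survived, 1 parental) and 0.83 within the 3 of the form Hjang2018 (1 drug-survived, 2 parental), against 0.03 and 0.09 for all genes. With the form as a covariate edgeR called 27 of the 44. Of the 27, 21 were called in all 14 alternatives tried, and CTSH in the 12 whose filter it passed. In the alternatives where they were tested all 27 had a positive sign, with 22 to 27 called when 1 library was left out. Upper-quartile scaling moved the median of all genes from 0.06 to 0.23 and the share of higher among all calls from 54.6% to 67.45%, and library totals alone moved that share to 60.4%. The median of the 44 genes was 1.07 under upper-quartile scaling.

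Of 6 leukocyte and macrophage markers, CD14 was at 2.78 to 9.49 FPKM in the parental and 11.5 to 17.1 in the drug-survived libraries. The summed level of the 6 was 2.99 to 9.49 and 11.8 to 17.6. The edgeR fit called none of the 6 higher or lower, CD14 included. LYZ was at or below 0.0618 FPKM in parental and at 0.0144 to 0.281 in drug-survived cells. PTPRC, CSF1R, TYROBP and AIF1 were at or below 0.157 FPKM in all 10 libraries, and AIF1 was listed at 0 in all. The 5 fibroblast markers summed to 14.1 to 28.2 FPKM in parental and 6.08 to 21.1 in drug-survived cells, most of it in parental cells from COL3A1, which was called lower, at 13.7 to 26.5 FPKM in parental and 2.5 to 7.22 in drug-survived cells. COL1A1 and DCN were called higher by edgeR, COL1A1 at 0.0848 to 0.193 in parental and 0.783 to 6.51 in drug-survived cells and DCN at or below 0.319 in both, and COL1A2 was at or below 0.0419 in all libraries. LUM was not called, at 0.237 to 2.76 FPKM in parental and 0.362 to 6.99 in drug-survived cells. The 3 endothelial markers summed to at most 0.139 in both, with VWF called higher. The part of these markers in the result was not tested.

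Exons of some of the genes overlap those of another gene in the GENCODE v29 annotation (GRCh38). The largest with named protein-coding genes on the other strand are CTSA with NEURL2 (17.7% of its exonic bases), IDUA with SLC26A1 (13.3%) and PPT1 with CAP1 (23.4%). Whether the counting used strand is not given in the sources used here, so reads of such pairs cannot be told apart over those bases. On the same strand, protein-coding models that have only a clone name share 41.7% of the exonic bases of CTSD, 16.5% of IDS and 13.1% of MAN2B1.

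Since the MiT/TFE factors act through the E-box CACGTG, and most strongly through its extension TCACGTGA, both palindromes that read the same on either strand, the promoter windows of RefSeq (GRCh38.p14, 250 bases before to 50 after a transcript's start) were searched for them. A window was given for 30 of the 44 genes. CACGTG was found in 10 of the 30 (33.3%), against 8.77% of 27305 genes with a window, and TCACGTGA, which contains it, in 5 of the 30 (16.7%), against 1.18%. The 10 were CTSA, CTSD, CTSF, GAA, NEU1, ARSB, LAMP1, CD63, MCOLN1 and ATP6V0D1. Of these, 8 were among the genes called in drug-survived cells (not ARSB and ATP6V0D1), as were 9 of the 20 without the hexamer. The genes set against the 30 were all those with a window, not matched in base composition. The shares of genes with a match use no expression value of this study. A match describes these letters and not a bound site, and no binding was measured.

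The 200 bases before the start are shown for LAMP1, GAA and MCOLN1, which hold 2 or more matches there and rose. CTSA also holds 2 there and rose, but is not shown. GLB1 and GRN, which have none in their window, are shown as well, GLB1 not called and GRN among the strongest increases. Lower case is used throughout, with each CACGTG in capitals. The stretch of LAMP1 is at chr13:113297039-113297238 (plus strand) and holds 5 copies, from 192 to 28 bases before the start. That of GAA is at chr17:80101381-80101580 (plus strand) with 2 copies, and that of MCOLN1 at chr19:7522424-7522623 (plus strand) with 2, the nearer 14 bases before the start. Those of GLB1 and GRN are at chr3:33096823-33097022 (minus strand) and chr17:44345102-44345301 (plus strand). The GLB1 start used lies inside the gene's annotated span, which reaches 33097146 on that chromosome. The bases before that outer edge of GLB1 were therefore neither searched nor shown.
LAMP1: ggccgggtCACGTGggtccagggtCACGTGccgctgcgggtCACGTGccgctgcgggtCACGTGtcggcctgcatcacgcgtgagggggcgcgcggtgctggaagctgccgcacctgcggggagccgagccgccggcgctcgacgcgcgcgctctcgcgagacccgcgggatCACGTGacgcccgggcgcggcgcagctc
GAA: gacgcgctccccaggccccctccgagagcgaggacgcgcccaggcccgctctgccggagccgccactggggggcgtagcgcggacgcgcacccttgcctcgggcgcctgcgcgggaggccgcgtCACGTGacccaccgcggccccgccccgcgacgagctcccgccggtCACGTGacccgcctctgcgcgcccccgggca
MCOLN1: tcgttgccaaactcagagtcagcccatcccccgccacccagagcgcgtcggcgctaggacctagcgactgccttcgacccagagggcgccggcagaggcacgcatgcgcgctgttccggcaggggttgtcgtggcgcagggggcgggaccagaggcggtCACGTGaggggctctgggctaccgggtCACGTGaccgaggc
GLB1: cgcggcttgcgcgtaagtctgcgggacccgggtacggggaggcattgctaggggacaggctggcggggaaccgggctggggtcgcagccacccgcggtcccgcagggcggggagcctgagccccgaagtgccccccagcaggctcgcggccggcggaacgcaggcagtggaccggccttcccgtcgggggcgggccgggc
GRN: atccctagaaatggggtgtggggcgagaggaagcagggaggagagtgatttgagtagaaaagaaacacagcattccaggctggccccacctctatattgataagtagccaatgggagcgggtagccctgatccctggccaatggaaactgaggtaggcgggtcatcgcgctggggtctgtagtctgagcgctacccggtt
The 3 genes shown with matches had log2 changes of 0.71, 1.75 and 1.15 in drug-survived cells, in the order printed, and GLB1 and GRN 0.26 and 1.87.

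The 3 drugs were also set apart as single libraries, against the parental mean as differences of log2(FPKM + 1). The added 1 shrinks the differences of genes with low levels, and these differences were not tested. In CR, 17 of the 44 genes were more than 2-fold higher (4.02% of all genes) and none lower (4.85%). In PR, taken as the mean of its 2 libraries, 19 were higher (5.47%) and none lower (4.05%), and in DR 19 were higher (3.95%) and none lower (3.91%). Median differences were 0.82 in CR, 0.93 in PR and 0.88 in DR. The genes past 2-fold in each of the 3 were CTSA, CTSD, CTSF, CTSO, HEXA, GAA, IDUA, MAN2B1, FUCA1, ARSA, ASAH1, SMPD1, PSAP, MCOLN1 and GRN. GALC was past it in CR alone, at a difference of 1.69 against 0.43 in PR and 0.38 in DR. CTSS, at 1.33, TPP1, at 1.44, and NEU1, at 1.05, were past it in PR alone on this scale. The 3 genes had 0.02, 0.52 and 0.80 in CR and 0.51, 0.91 and 0.85 in DR. In FPKM, DR had 0.648 for CTSS and 5.43 for TPP1, against parental means of 0.155 and 2.58. For those 2 genes it is the added 1 that keeps DR under the cut. CR and DR had 1 library each, and the differences between the drugs were not tested either. The drugs and doses differ, and the parental libraries are shared.

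PR cells, the one drug with 2 libraries, were tested on their own against the 3 parental libraries. By edgeR 22 of the 44 genes rose and none fell, where 17.5% and 10.6% of 19430 genes did, and the median log2 fold change of the 44 was 0.86 against 0.05. These libraries are part of the comparison above and share its parental controls. CTSS had a log2 change of 3.39 ± 0.38 (adjusted p = 0.00141), CTSF of 2.00 ± 0.27 (adjusted p = 0.00234) and PSAP of 1.78 ± 0.25 (adjusted p = 0.00238). LAMP1 (0.57 ± 0.27), LAMP2 (0.68 ± 0.24), CD63 (0.68 ± 0.25), ATP6AP1 (0.72 ± 0.24) and SGSH (0.71 ± 0.26), all called with the 4 survivor libraries, did not pass with PR alone, at edgeR adjusted p from 0.0505 to 0.143. Without PR replicate 1 only 11 genes were called and without PR replicate 2 only 5, in fits where a lone library is taken to vary like the other group. The share of higher among all calls was 62.2%, and 75.9% with upper-quartile scaling or 74.9% with library totals alone.

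**Figure D3:**
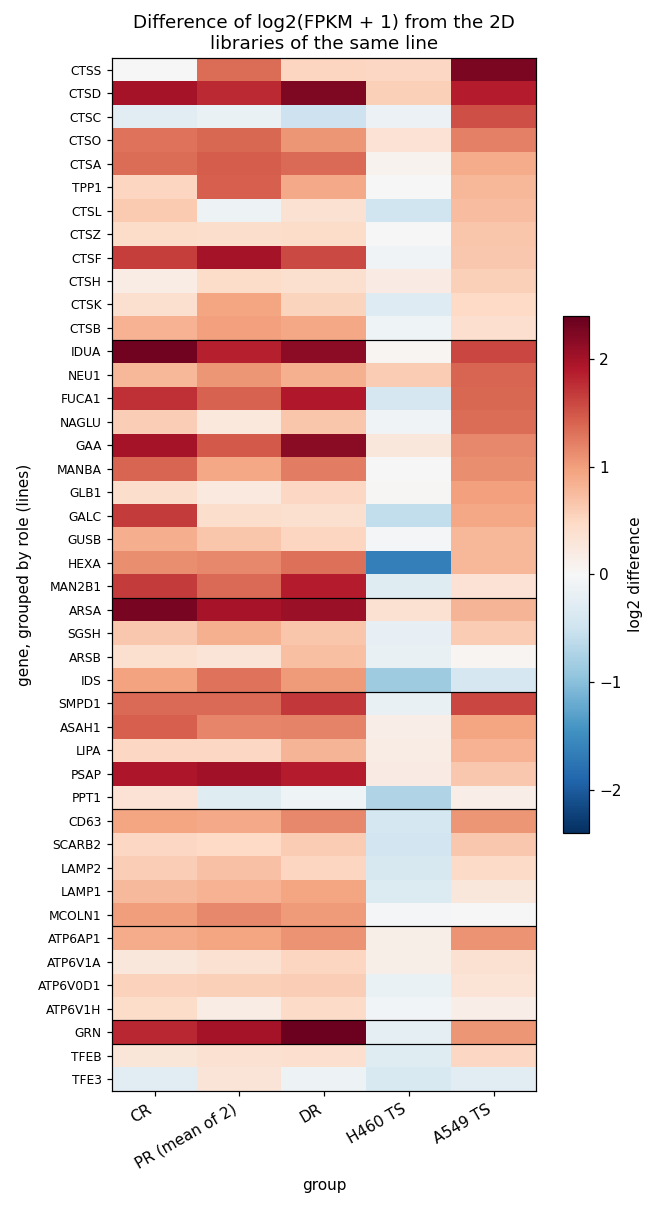
The map shows, for the 44 genes (rows, grouped by role), the difference of log2(FPKM + 1) in CR, PR, DR, H460 TS and A549 TS from the 2D libraries of the same line, red for higher and blue for lower. The 3 drug columns are red for most genes, H460 TS is pale with HEXA the darkest blue at -1.65, and A549 TS is red for 41 genes with CTSS the darkest at 2.26.

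TS cells were compared with 2D cells of the same line. By the fit over both lines (6 libraries, with the line as a covariate) none of the 44 genes was called by edgeR, where 0.147% of 18372 genes rose and 0.0435% fell, that is 27 and 8 genes. At an unadjusted p under 0.05 there were 6 of the 44 and 1363 genes in all, and DESeq2 called 1 of the 44, CTSS. CTSS had a log2 change of 2.37 ± 0.31 (edgeR adjusted p = 0.0576), and among the rest CTSD had 1.14 ± 0.42 and NEU1 1.06 ± 0.34, neither past the threshold.

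In A549 cells, 14 of the 44 genes were more than 2-fold higher in the TS library than in the 2D library (4.33% of all genes) and none was lower (2.04%), with a positive difference in 41 and a median of 0.79 on the log2(FPKM + 1) scale. With 1 library each there is no replicate check. Among the peptidases CTSC was at 29.5 FPKM in 2D and 87.7 in TS, CTSD at 130.5 FPKM in 2D and 485 in TS, and CTSS at 2.03 FPKM in 2D and 13.6 in TS. CTSO was at 0.317 FPKM in 2D and 2.03 in TS. Of the glycosidases GAA was at 19.6 FPKM in 2D and 45 in TS. IDUA was at 1.46 FPKM in 2D and 6.46 in TS, and MANBA at 2.23 FPKM in 2D and 5.96 in TS. These sphere values are all more than 2-fold above 2D. NEU1 was at 5.34 FPKM in 2D and 15.8 in TS and FUCA1 at 4.15 FPKM in 2D and 12.4 in TS. NAGLU, the N-acetylglucosaminidase of heparan sulfate breakdown, was at 12.2 FPKM in 2D and 32.5 in TS. The same held for SMPD1, at 2.4 FPKM in 2D and 9.3 in TS, and for CD63, at 176 FPKM in 2D and 371 in TS. ATP6AP1 was at 49.98 FPKM in 2D and 107 in TS, and GRN at 73.5 FPKM in 2D and 155 in TS. LAMP1 (42.1 FPKM in 2D and 50.9 in TS), LAMP2 (20.5 FPKM in 2D and 28.6 in TS) and CTSB (71.4 FPKM in 2D and 95 in TS) differed by less than 1 on the log2(FPKM + 1) scale, as did GLB1 (22.9 FPKM in 2D and 46 in TS), CTSL (197 FPKM in 2D and 328 in TS) and TFEB (1.24 FPKM in 2D and 2.15 in TS), whereas TFE3 was at 28.9 FPKM in 2D and 24.2 in TS. The largest of these differences, 2.26 on the log2(FPKM + 1) scale, was that of CTSS. GLB1, at 0.98, lay just under the cut, and 14 to 17 of the 44 genes were past 2-fold under 3 other settings. LYZ, in the leukocyte list, was listed at 0 in A549 2D and at 37.8 FPKM in A549 TS, and CD14 at 2.37 and 10.1, while CSF1R, TYROBP and AIF1 were listed at 0 in both and PTPRC at 0 and 0.00459. The part of these markers in the result was not tested.

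In the H460 TS library none of the 44 genes was more than 2-fold higher (1.25% of all genes) and 1 was lower (1.33%), 17 had a positive and 27 a negative difference, and the median was -0.08. The one lower gene was HEXA, at 3.17, 3.06 and 2.65 FPKM in the parental libraries and 0.263 in TS, with 91 reads there against 1077 to 1259 in the parental libraries. HEXA was at 16.3 FPKM in 2D and 28.9 in TS in A549 cells, so it lay lower in TS in one line and higher in the other, a difference that was not tested. In the fit over both lines HEXA had a log2 change of -1.44 ± 1.12 and was not called. It was called lower when either A549 library was left out. Both of those fits rest on the same contrast, the H460 TS library alone against the parental libraries. CTSD was at 226 FPKM in H460 TS, GLB1 at 21.8, LAMP1 at 56, LAMP2 at 20.4, CTSB at 34.7 and CTSL at 534. Of these, LAMP2 and CTSL were below the lowest parental value, CTSD was above the highest, and the others lay within the parental range. TFEB and TFE3 were at 1.81 and 25.8, both below the parental range. Of the fibroblast markers, LUM was at 26.6 FPKM in H460 TS against 0.237 to 2.76 in the parental libraries. COL3A1 was at 1.3 FPKM there against 13.7 to 26.5. The part of these markers in the result was not tested.

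The 44 genes together took 0.684% ± 0.0417 (SD, n = 3) of the TPM (transcript abundance scaled to a fixed total per library) in parental H460 cells and 1.22% ± 0.0508 (SD, n = 4) in drug-survived cells, from 1.16% in PR replicate 1 to 1.27% in CR. H460 TS cells had 0.59%, A549 2D cells 0.371% and A549 TS cells 0.7%. The lipid group, with PSAP its largest member, lay between 0.115% and 0.12% in parental cells and between 0.289% and 0.313% in survivors. The cathepsins and peptidases, of which CTSL, CTSC and CTSZ took much of the parental share, lay between 0.338% and 0.407% and, in survivors, between 0.49% and 0.588%.

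**Figure D4:**
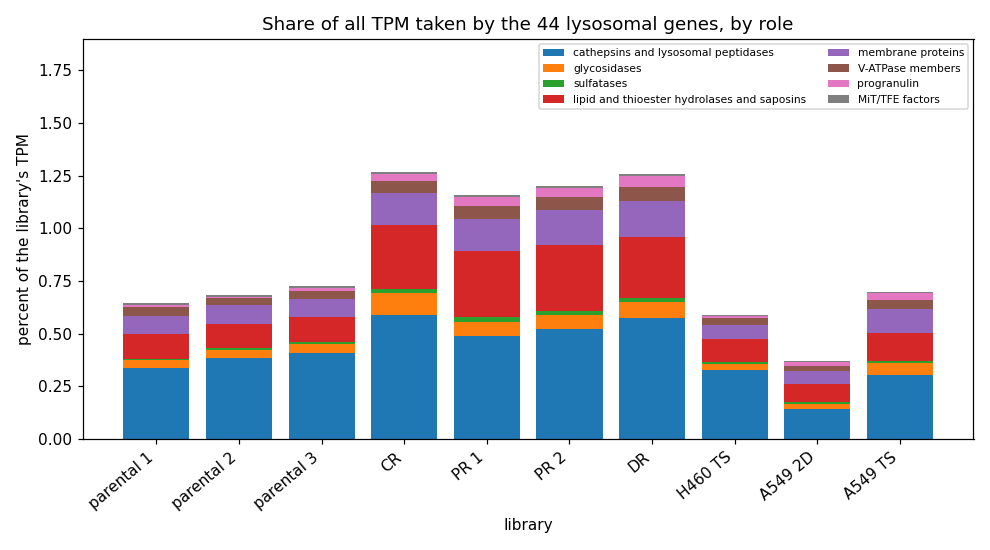
Stacked bars show the percent of each library's TPM (y axis, from 0) taken by the 44 genes, split by role. The 4 drug-survived bars reach 1.16 to 1.27, the 3 parental bars 0.644 to 0.727, and A549 2D is lowest at 0.371.

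In A549 against H460 cells (the line term of the same 6-library fit), 6 of the 44 genes were higher and 4 lower by edgeR, where 14.4% and 9.42% of all genes were, so that the share of members called was near that of all genes. CTSH was at 4.22 FPKM in A549 2D and 6.76 in A549 TS, against 0.109 to 0.156 in parental H460 cells (log2 difference 4.57 ± 0.34, adjusted p = 0.00037). CTSS, TPP1 and HEXA were also higher in A549 cells, by 4.0 ± 0.31, 3.19 ± 0.45 and 4.32 ± 0.97 on the log2 scale (edgeR adjusted p = 0.000489, 0.00384 and 0.02). The H460 TS library, where HEXA was low, is part of the H460 arm of this fit, and the HEXA difference was 2.43 without it, 2.45 without A549 TS and 6.78 without A549 2D. IDS and CTSB were higher by 1.31 ± 0.28 and 1.15 ± 0.26. In the other direction, CTSC was at 29.5 FPKM in A549 2D against 313, 394 and 349 in parental H460 cells (log2 difference -2.87 ± 0.47, edgeR adjusted p = 0.00675). GALC (-2.39 ± 0.44), PPT1 (-2.18 ± 0.33) and CTSL (-1.42 ± 0.37) were lower too. Without A549 2D the difference was -1.89 for CTSC, -1.44 for GALC and -0.69 for CTSL, with GALC and CTSL no longer called (adjusted p = 0.0617 and 0.35, edgeR), and without either TS library it was -3.61 or -3.60 for CTSC and -3.10 or -3.08 for GALC. CTSC, CTSH, CTSS, TPP1 and PPT1 were called in all 12 alternatives, whereas CTSB was lost in 5 of them, CTSL in 4, HEXA (without parental replicate 2 or 3) and IDS (without either TS library) in 2 each and GALC (without A549 2D) in 1. CTSB was lost without parental replicate 1 or 2, H460 TS, A549 2D or A549 TS, and CTSL without any 1 of the parental libraries or A549 2D.

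**Figure D5:**
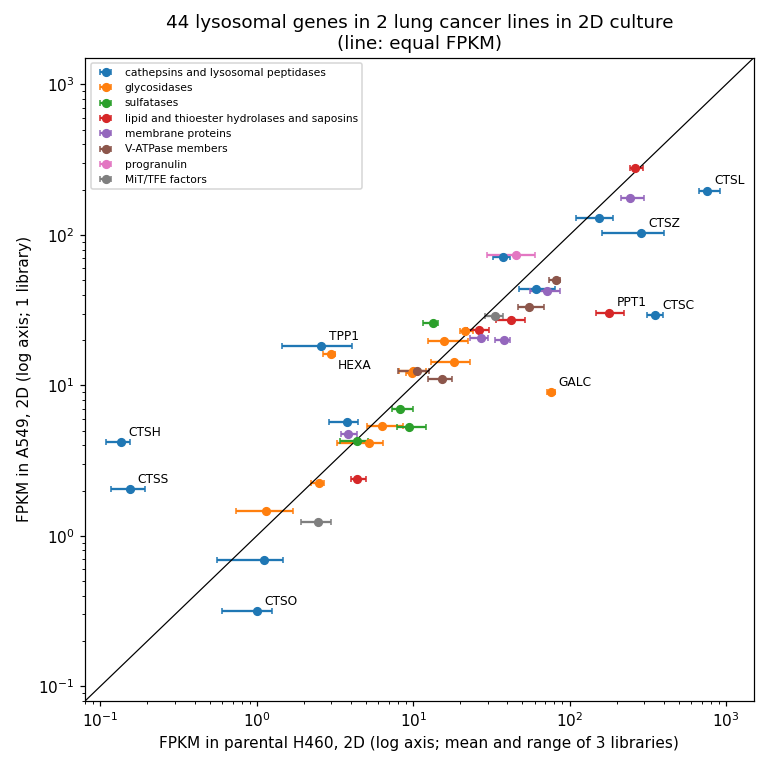
FPKM of the 44 genes in A549 2D (y axis, log scale, 1 library) is set against parental H460 cells (x axis, log scale, mean and range of 3 libraries), with a line of equal FPKM. CTSH, CTSS, TPP1 and HEXA lie far above the line and CTSC, GALC, PPT1, CTSL, CTSZ and CTSO below it.

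Other lysosomal genes, from lists of the same pathway, were tested in drug-survived cells by the same edgeR fit, in which 18.5% of all genes rose and 15.3% fell. Against these shares, the rises among other membrane proteins and among the MiT/TFE and mTORC1 genes and the falls among other hydrolases were near background. Of 27 other hydrolases and their activators 12 rose and 5 fell. ARSG, an arylsulfatase, rose from 1.48 ± 0.75 FPKM (SD, n = 3) to 9.1 ± 2.14 (n = 4), a log2 change of 2.52 ± 0.37 (SE), whereas CTSV, a cathepsin of thymus and skin, fell from 0.446 ± 0.0721 to 0.111 ± 0.0131 and HYAL1, a hyaluronidase, from 3.21 ± 1.35 to 1.22 ± 0.769. Of 26 other membrane proteins 6 rose and 1 fell, with CD68, also used as a macrophage marker, at 16.2 ± 1.04 and 44.8 ± 11.2 and the sialic acid exporter SLC17A5 at 5.15 ± 0.98 and 12.9 ± 1.13 FPKM. LAPTM5 was called higher but stayed near 0, at 0.319 FPKM in survivors. Of 19 other V-ATPase subunits 7 rose and none fell, among them ATP6AP2 at 51.3 ± 5.92 and 130.9 ± 9.32 FPKM, with ATP6V0D2 and ATP6V0A4 called but at or below 0.214 FPKM on average.

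Of 20 genes that sort enzymes to lysosomes 1 rose and 1 fell. GNPTG, a subunit of the enzyme that makes the mannose 6-phosphate tag, rose from 10.7 ± 1.55 to 39.6 ± 6.19 FPKM (log2 change 1.71 ± 0.22), and the adaptor GGA2 fell from 12.4 ± 2.25 to 8.27 ± 0.922. Of 20 further MiT/TFE and mTORC1 genes 4 rose and 1 fell, MITF from 1.29 ± 0.0395 to 2.96 ± 0.801 FPKM and the Rag GTPase RRAGB from 2.7 ± 0.258 to 4.86 ± 1.25. TFEC, another relative of TFEB, was called but at 0.0356 FPKM in survivors. Of 24 autophagy genes 9 rose and 1 fell, among them the cargo receptor OPTN (2.66 ± 0.888 and 8.15 ± 2.7 FPKM), WIPI1 (5.6 ± 2.46 and 15.0 ± 2.55) and GABARAPL1 (11.9 ± 3.55 and 30.5 ± 5.15). Of 4 cystatins, which inhibit cysteine cathepsins, 2 rose, CST3 from 115.6 ± 24.9 to 328.3 ± 61.4 FPKM and CST1 from 0 in all 3 parental libraries to 0.223. Median log2 changes were 0.39 for the hydrolases, 0.41 for the membrane proteins, 0.56 for the V-ATPase subunits, -0.17 for sorting, 0.12 for the MiT/TFE and mTORC1 list, 0.36 for autophagy and 1.16 for the cystatins, against 0.06 for all genes. In TS cells no gene of these lists was called by edgeR in the fit over both lines. CST1 was at 0.264 FPKM in A549 2D and 219 in A549 TS, but at 0 in H460 TS. With 1 library each, that A549 difference was not tested.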

How the data were processed

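Poly(A) RNA was sequenced in 10 libraries. Per the submitters' processing notes the authors used bcl2fastq 1.8.4, Trimmomatic, HISAT2 2.1.0 and StringTie 2.1.3b on GRCh38, and the read counts per gene are whole numbers as deposited, with whether strand was used not given in the sources used here. The FPKM and TPM values were computed by the authors from the same alignments and were deposited beside the counts. Counts were fitted here with edgeR 4.0.16 (R 4.3.3, quasi-likelihood F test, TMM factors, genes kept by filterByExpr with a minimum count of 10, Benjamini-Hochberg adjustment over all genes kept, threshold 0.05). The standard error given with an edgeR change is the absolute log2 change divided by the square root of its F statistic. It was thus derived from the test and is approximate. The unit of replication was the library. Groups came from the sample titles. Single libraries were compared as log2(FPKM + 1), with more than 2-fold reported. The members and the wider and marker lists were chosen with earlier results of these data known. Per-library values are given for members past the threshold in drug-survived cells with a fold above 1.5, members more than 2-fold changed in a TS library, and GLB1, LAMP1, LAMP2, CTSB, CTSD, CTSL, TFEB and TFE3. From each wider list at most 3 genes are named, by size of change among those called. Alternatives were DESeq2 1.42.0, limma 3.58.1 on log2(FPKM + 1 or + 0.1) with genes at FPKM of 1 or more in 2 libraries, other scalings, no filter, each library left out, the form of the library name and, for PR, the replicate number. Leaving out CR, DR, either TS library or A549 2D was added after the data were seen. Replicates differed by far more than counting noise (chi-square per gene 94.87 to 342.8). The fits were tested on simulated data. Intervals are not given for single libraries, whose precision is limited by their number.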

Additional observations from a re-analysis of the deposited data

Results flagged for a closer look

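Within the 4 drug-survived libraries, 1 library stood far from the other 3 in 5 of the 44 genes, by Dixon's criterion at the 95% level, which chance alone meets in about 1 in 20 groups. PR replicate 2 was the high one for CTSA (179.3 FPKM, the others 153.5 to 156.0), NEU1 (16.9, the others 11.31 to 11.91) and MCOLN1 (10.77, the others 8.756 to 8.88). For GALC it was the CR library, at 245.6 FPKM against 98.72 to 103.0, and for LIPA the DR library, at 73.5 FPKM against 58.12 to 58.75.

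HEXA moved opposite ways in the TS libraries of the 2 lines. It was at 0.2631 FPKM in H460 TS cells, under each parental library, and at 28.92 FPKM in A549 TS cells against 16.27 in A549 2D cells. The difference between the lines was not tested.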

How the results depend on the processing

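The 27 lysosomal genes called higher in drug-survived cells became 26 to 33 under 7 other settings and 22 to 27 without 1 library, with none lower in any, and the count of all genes higher was 2200 to 3374 without 1 library. In PR, leaving out 1 library gave 5 to 22 of the 44 genes, 670 to 3967 genes higher and 280 to 2694 lower. Upper-quartile scaling gave 1347 genes lower in PR, limma on log2(FPKM + 1) gave 1858 higher and 1168 lower and limma on log2(FPKM + 0.1) 1669 and 1104. In TS against 2D, DESeq2 called 1 of the 44 genes and 311 genes higher and 226 lower, limma on log2(FPKM + 0.1) 10 higher, and leaving out 1 library gave 0 to 1 of the 44 genes higher, 0 to 1 lower, and 6 to 199 genes higher and 0 to 132 lower. In A549 against H460, DESeq2 gave 2755 genes lower, the limma fits 1768 and 1701 higher, and leaving out 1 library 2 to 4 of the 44 genes lower, 1514 to 2319 genes higher and 845 to 1586 lower. For the H460 TS library, log2(FPKM + 0.1) and scaled CPM each put 1 gene more than 2-fold higher and scaled CPM put 2 lower, and 1 parental library alone as the control gave 0 to 1 higher and 1 to 2 lower. Groups did not overlap with lower values in 1 gene in scaled CPM. The cause of these shifts was not tested. With the replicate block in PR (replicates 1 and 2, 4 libraries) 24 of the 44 genes were called against 22 with no block, 21 of them shared. The deviations of same-numbered libraries correlated at 0.151 over 18398 genes, with 2 pairs and no label that makes the number a pairing. Single libraries of CR, DR, TS and A549 2D limit what can be said of each.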
